A study of Mus musculus with 2 samples.

Results

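Caspases are cysteine proteases that carry out apoptosis or inflammatory cell death, and the genes described here were 6 caspases (Casp1, Casp2, Casp4, Casp6, Casp8 and Casp9) together with Nlrp3 and Pycard, which encode the sensor and the adaptor of the Nlrp3 inflammasome. They were chosen by name, and every probeset annotated to exactly 1 of these symbols was taken, which gave 13 probesets for 8 genes out of 34945 such probesets for 18193 genes. RNA came from 2 stable pools of RAW264.7, a mouse macrophage-like line: 1 infected with the retroviral vector MSCV encoding miR-155, and 1 infected with the empty MSCV vector. Puromycin selection (7 µg/ml) was followed by limiting dilution in both arms, and each pool was the combined RNA of 5 clones. Each pool was hybridised to 1 array, so there was no replicate, no test was made, and every difference describes these 2 arrays only. The sources used here do not give the age of the cultures.

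The inflammatory caspases act in macrophages. Caspase-1 is recruited by inflammasomes through the adaptor ASC, the product of Pycard, and matures the cytokines IL-1β and IL-18, while the mouse product of Casp4, also called caspase-11, binds cytosolic lipopolysaccharide directly, and both cleave gasdermin D to open pores in the membrane. The apoptotic caspases comprise the initiators caspase-8 (death receptors), caspase-9 (the apoptosome) and caspase-2 (the PIDDosome), and the executioner caspase-6, which cleaves lamin A. RAW264.7 cells are known from earlier work to lack the ASC protein.

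Of the sequences that bear on the comparison, the mature microRNA that the vector encodes is shown first, with its seed (bases 2 to 8) in capitals, as RefSeq gives it for GRCm38.p6 on the plus strand at chr16:84714143-84714165. The promoter windows of Casp1 and Casp4 follow, because these neighbouring genes on chromosome 9 were the caspases with the highest ratios. Each window runs from 250 bases before to 50 bases after a RefSeq start site on the plus strand of GRCm38.p6, at chr9:5298267-5298566 for Casp1 and chr9:5308599-5308898 for Casp4. Capitals mark matches to a κB-type motif.
mmu-miR-155-5p: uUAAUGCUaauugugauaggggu
Casp1 promoter: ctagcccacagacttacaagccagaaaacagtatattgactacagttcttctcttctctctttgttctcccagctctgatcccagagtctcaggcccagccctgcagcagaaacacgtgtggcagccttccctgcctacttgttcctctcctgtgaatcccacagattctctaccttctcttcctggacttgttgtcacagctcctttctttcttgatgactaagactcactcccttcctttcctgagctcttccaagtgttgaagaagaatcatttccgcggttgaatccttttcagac
Casp4 promoter: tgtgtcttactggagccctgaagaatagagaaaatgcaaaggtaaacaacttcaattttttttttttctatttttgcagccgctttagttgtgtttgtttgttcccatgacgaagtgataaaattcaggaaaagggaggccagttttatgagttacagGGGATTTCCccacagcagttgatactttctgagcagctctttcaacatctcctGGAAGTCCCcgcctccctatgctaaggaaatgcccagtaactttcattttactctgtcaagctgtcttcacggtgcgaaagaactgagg

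All 8 genes had a promoter window in the RefSeq table, 10 windows in all, since Casp4 and Nlrp3 had a pair each. The interferon-stimulated response element, searched on both strands as a pair of GAAA tetramers 2 bases apart, matched none of the 10 windows and 3.44% of all 32851 windows. The interferon-γ activated site, searched as TTCNNNGAA, likewise matched none of the 10 and 8.30% of all windows. The κB-type letters GGGANTTCC were chosen after the Casp4 window had been read. They matched both overlapping windows of Casp4 and none of the other genes, against 1.68% of all windows. In the printed Casp4 window the matches were GGGATTTCC on the plus strand, beginning 92 bases before the start site, and GGAAGTCCC, the motif on the minus strand, beginning 39 bases before it. A match of letters is not a binding site, and a missing match says nothing about a factor acting outside these windows.

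The arrays held 45101 probesets with a median signal of 14.1 on the miR-155 array and 15.4 on the empty-vector array. Each gene was represented by its brightest probeset, judged on the mean of the log2 signals. The 9097 genes whose mean lay in the upper 50% were kept, which put the signal floor at 25.8. The level of a probeset depends on its probes, so levels of different genes were not ranked against each other. Beside each ratio stands the local SD, a robust SD taken over the log2 ratios of the 500 kept genes nearest in signal. It measures spread across genes and not between clones or cultures. Of 8 macrophage markers, 7 (all but Mrc1) lay above the floor on both arrays, with a summed signal over the list of 18993 on the miR-155 array and 18556 on the empty-vector array. The markers moved apart within that sum: Cd14 was 2.40-fold and Fcgr1 1.58-fold higher in the miR-155 array, Adgre1 was 1.63-fold lower, and the further probesets of Csf1r were 1.99-fold and 1.95-fold lower against 1.19-fold in its brightest. Without Cd14 the sum was 14848 on the miR-155 array and 16828 on the empty-vector array, and the part of these markers in the results was not tested. Of 13 measured markers of lymphoid, granulocytic, stromal, epithelial and mast cells, Epcam lay above it on both arrays and the other 12 on neither, with summed signals of 105 on the miR-155 array and 131 on the empty-vector array.

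Among the 8 genes, 7 passed the signal filter and Pycard did not. The filter acts on the mean of both arrays, so these counts describe only the genes that passed. Past 1.5-fold upwards in the miR-155 array was 1 of the 7, Casp4, and 0 were past it downwards. Among all kept genes 5.32% were as much higher and 5.99% as much lower, or 484 and 545 genes. With the ratios centred on the median of all probesets, these counts over all kept genes were 617 and 432. The median log2 ratio of the 7 was 0.05, against −0.05 over all kept genes.

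**Figure D1:**
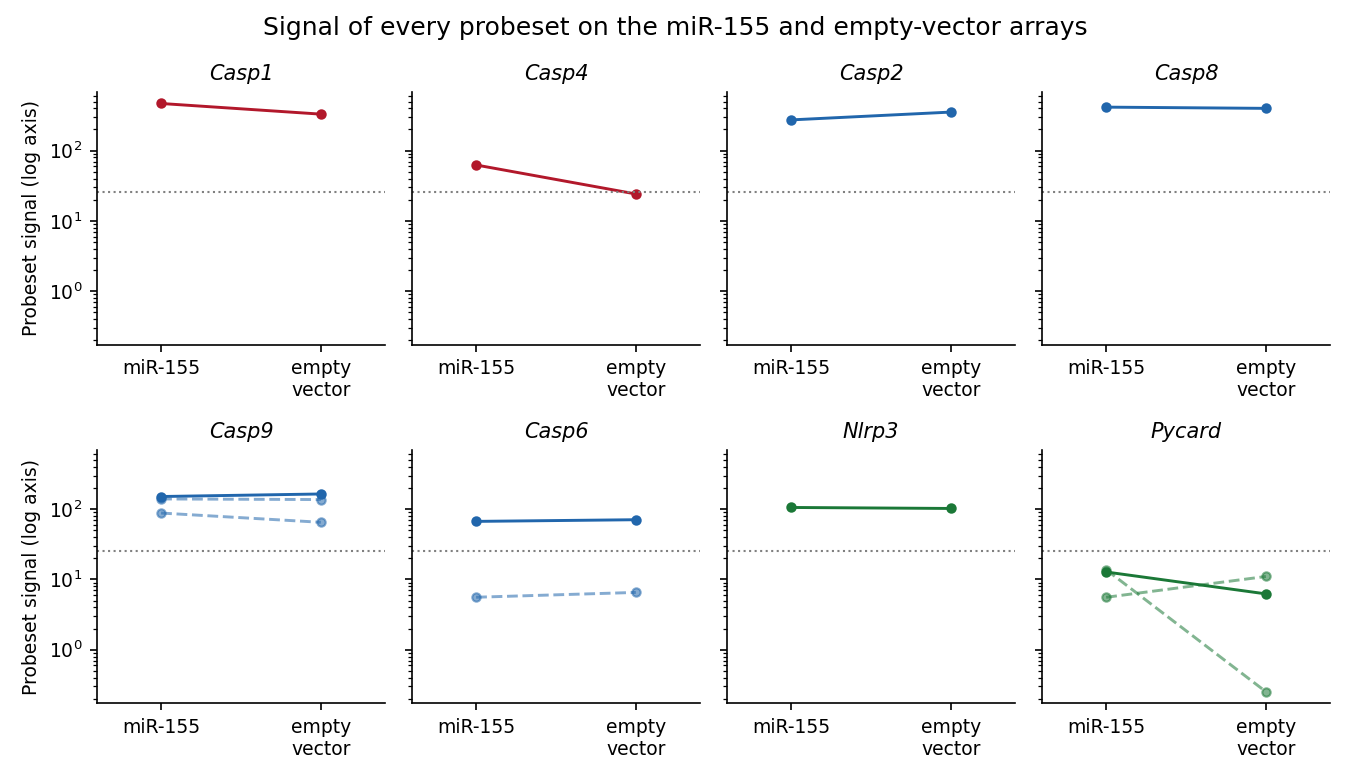
Probeset signal (log axis) of the 8 genes on the miR-155 array (left point) and the empty-vector array (right point), 1 array each; a line joins the readings of 1 probeset, solid for the brightest probeset of the gene and dashed for further ones, with inflammatory caspases in red, apoptotic caspases in blue and Nlrp3 and Pycard in green. The dotted line is the signal floor of 25.8: Casp4 crosses it, and all 3 Pycard probesets lie below it on both arrays.

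Casp4 had the highest ratio of the caspases. Its only probeset, 1449591_at, read 62.5 on the miR-155 array and 24.2 on the empty-vector array. The reading of the empty-vector array was thus just under the signal floor, and only that of the miR-155 array stood clear of it. The ratio was 2.58-fold as deposited (log2 ratio 1.37, local SD 0.56), and 2.42-fold with the dimmer reading raised to the floor. Casp4 passed the filter through its miR-155 reading, since the other reading alone would not have passed, so its ratio had to be above 0. It lay 2.57 local SDs above the local median. Casp4 belongs to the dimmest 20% of kept genes, in which large ratios were common: 12.9% of them read higher by 1.5-fold or more and 5% by 2-fold or more, against 1.92% by 2-fold or more over all kept genes. RNA was measured in bulk, so more cells with the transcript and more transcript per cell cannot be told apart.

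Casp1, which encodes the protease that matures IL-1β, was also higher in the miR-155 array but stayed short of 1.5-fold. Its single probeset, 1449265_at, read 469 on the miR-155 array and 331 on the empty-vector array, both well above the floor. The ratio was 1.42-fold (log2 ratio 0.50, local SD 0.19). Casp1 is bright enough for a narrow local spread, and it lay 2.93 local SDs above the local median. Even so, 1.4% of the 500 probesets nearest in signal differed by at least 2-fold in either direction. With a single probeset there was no second reading of the Casp1 transcript. The next protein-coding gene after Casp1 and Casp4 in the RefSeq order is Casp12, a further caspase of this cluster, named here after its values were seen. Its brighter probeset read 13.5 on the miR-155 array and 17.6 on the empty-vector array, under the floor on both, so no ratio is given.

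The initiator caspases of apoptosis stayed within 1.5-fold. Casp8, whose product starts apoptosis at death receptors and restrains necroptosis, read 416 on the miR-155 array and 399.8 on the empty-vector array (log2 ratio 0.06, local SD 0.19). Casp2 had the lowest ratio among the 7 genes past the filter, with 274 on the miR-155 array and 354 on the empty-vector array. That is a ratio of 1.29-fold lower (log2 ratio −0.37, local SD 0.20), or −1.56 local SDs from the local median. Both genes had 1 probeset, so there was no second reading of either transcript.

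Casp9, the initiator activated on the apoptosome, had 3 probesets above the floor on both arrays, and they did not share a direction. The brightest, 1457816_at, read 151 on the miR-155 array and 164 on the empty-vector array (log2 ratio −0.12, local SD 0.28). For 1437537_at the signals were 139.7 on the miR-155 array and 137 on the empty-vector array (log2 ratio 0.03). The dimmest, 1426125_a_at, gave 88.0 on the miR-155 array and 65.0 on the empty-vector array (log2 ratio 0.44, local SD 0.39). All 3 ratios lay within 1.5-fold, and their mean was 0.12, opposite in sign to that of the brightest. Over all genes with further kept probesets, the robust SD of the difference in log2 ratio between a further probeset and the brightest was 0.30 (6576 further probesets of 4115 genes).

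Casp6, the executioner of the group, read 67.0 on the miR-155 array and 70.7 on the empty-vector array in its brighter probeset (log2 ratio −0.08, local SD 0.40). The further probeset, 1458715_at, read 5.58 on the miR-155 array and 6.53 on the empty-vector array, far under the floor. Casp6 therefore rests on 1 informative reading per array, which differed by much less than the local spread.

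**Figure D2:**
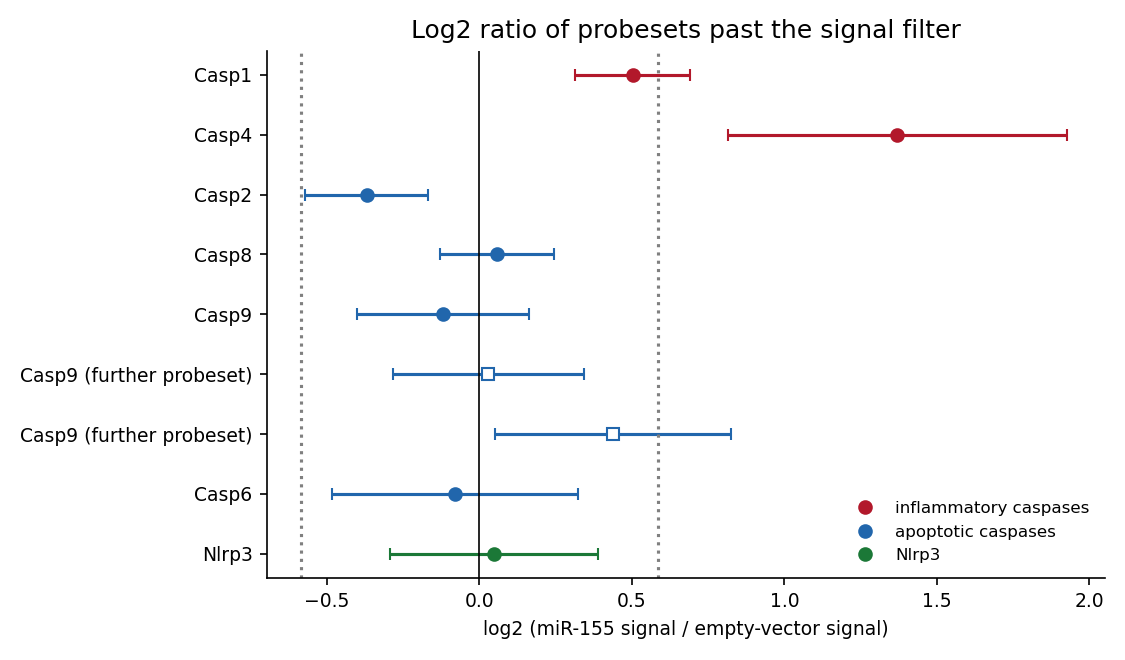
Log2 ratio of the miR-155 signal over the empty-vector signal for the 9 probesets past the signal filter; filled circles are the brightest probeset of a gene, open squares further probesets, bars are ± 1 local SD across genes of like signal, and dotted lines mark 1.5-fold. Casp1 lies at 0.50 and Casp4 at 1.37, and the highest probeset of the apoptotic caspases is a further Casp9 probeset at 0.44.

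The ratios of the inflammatory and the apoptotic caspases were set side by side as a description. The median log2 ratio was 0.94 for the 2 inflammatory caspases and −0.10 for the 4 apoptotic caspases, a difference of 1.04. By the brightest probeset of each gene, the lowest inflammatory ratio was 0.50 (Casp1) and the highest apoptotic ratio 0.06 (Casp8). Over all kept genes 42.0% of ratios were above 0 and 58.0% below it. Since the ratio of Casp4 had to be above 0, the place of the inflammatory set rests on Casp1. With so few genes, and 1 array per pool, the difference of medians has no test. Of the 2 inflammatory genes, Casp4 passed the filter only through the miR-155 array, so the median that includes it supports nothing by itself. Casp1 alone, with both readings above the floor, exceeded the apoptotic median by 0.60. With an offset of 50 added to each signal, Casp1 was at 0.45 and the apoptotic median at −0.07. The difference of medians was then 0.59, a value that still includes Casp4. The further Casp9 probeset at 0.44 narrows the gap to Casp1.

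**Figure D3:**
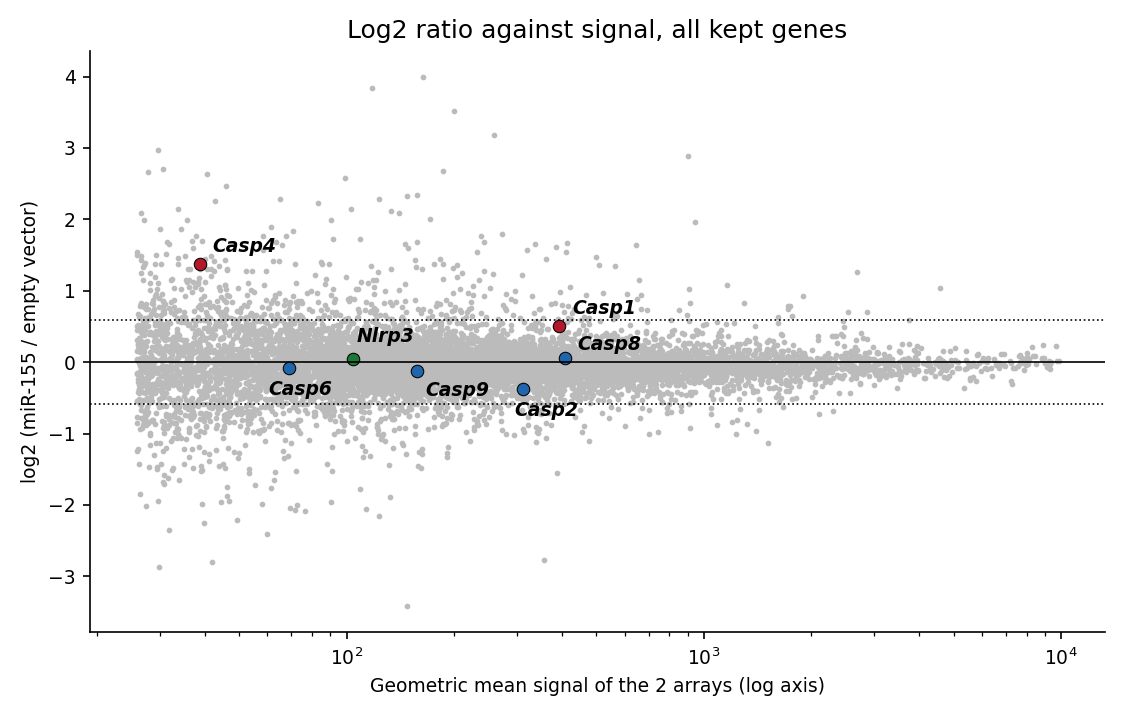
Log2 ratio (miR-155 over empty vector) against the geometric mean signal of both arrays (log axis) for the 9097 kept genes (grey), with the 7 genes past the filter named; red marks inflammatory caspases, blue apoptotic caspases and green Nlrp3, and dotted lines mark 1.5-fold. Casp4 lies among dim genes, where the cloud is wide, and Casp1 and Casp2 lie further right, where it is narrower.

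Nlrp3, the sensor that assembles the inflammasome after potassium efflux and other signals, hardly differed. Its probeset 1425412_at read 106 on the miR-155 array and 102 on the empty-vector array (log2 ratio 0.05, local SD 0.34). Both readings were above the floor, and their difference was well inside the local spread.

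Pycard, the gene of the ASC adaptor that links Nlrp3 to caspase-1, was under the floor in all 3 probesets on both arrays. The probeset with the highest mean, 1417346_at, read 12.8 on the miR-155 array and 6.23 on the empty-vector array. For 1417347_at the signals were 13.7 on the miR-155 array and 0.253 on the empty-vector array, and for 1446926_at they were 5.57 on the miR-155 array and 11.01 on the empty-vector array. The first and second of these read higher in the miR-155 array and the last read lower. All 6 readings were under the median signal of their own array, and among the 500 probesets nearest in signal to each, 41.0% to 62.6% differed by at least 2-fold in either direction. No ratio is given for Pycard, and no detection limit is known for such signals.

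The pathway around these genes was described with 9 further lists, whose 77 genes include 68 with a probeset of 1 symbol and 56 past the filter. The other 9 were not analysed here. Of the 56, the miR-155 array was higher by 1.5-fold or more for 9, lower by as much for 2, and within 1.5-fold for 45. Over all kept genes those shares were 5.32% higher and 5.99% lower, and among the dimmest 20% of kept genes 12.9% were as much higher. The lists were chosen with earlier results of these data known. With an offset of 50 added to each signal, only Cd14 and P2rx4 of the 9 were still past 1.5-fold. The same offset left 196 of all kept genes as much higher. The median log2 ratio of the 56 was 0.09. Nothing particular to a list follows from these counts.

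**Figure D4:**
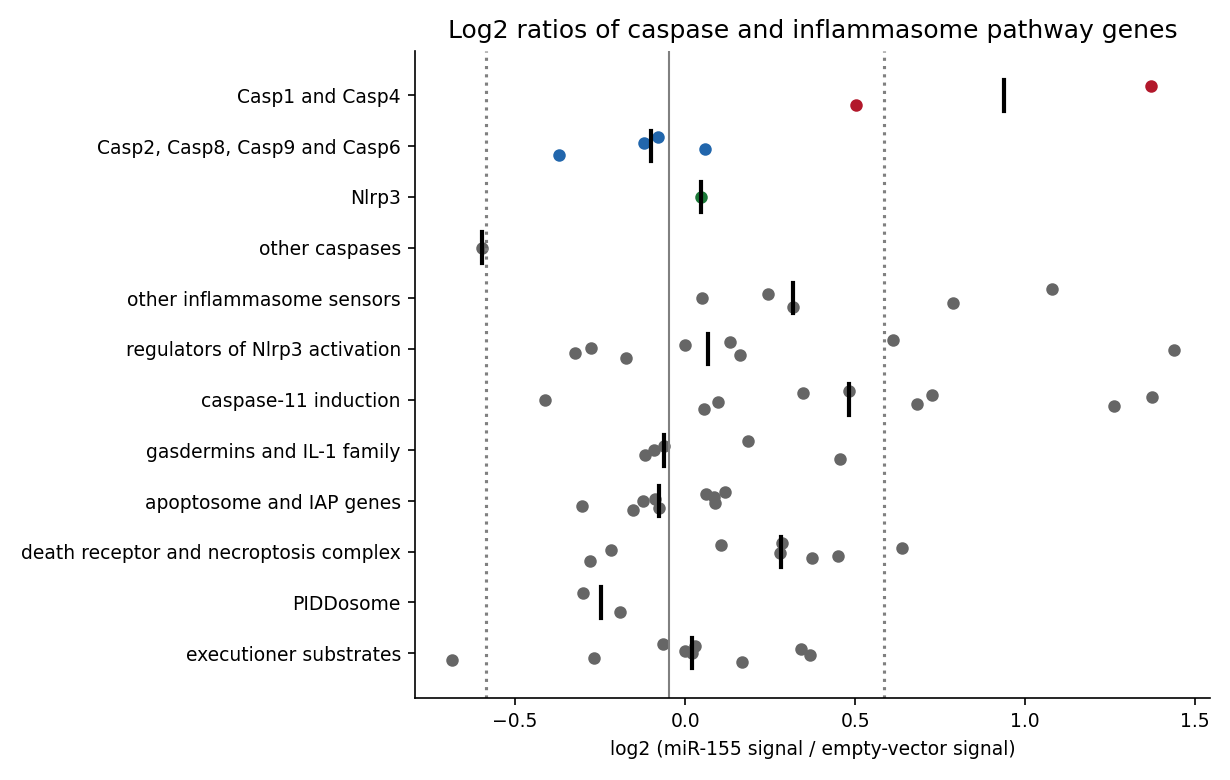
Log2 ratio (miR-155 over empty vector) of each gene past the filter, by list; colours mark the caspases and Nlrp3, grey points the genes of the pathway lists, and a black bar the median of each list. The grey vertical line is the median of all kept genes (−0.05) and dotted lines mark 1.5-fold. Of the 9 pathway genes at least 1.5-fold higher, most belong to the lists of caspase-11 induction, inflammasome sensors and regulators of Nlrp3. The lists were chosen with earlier results of these data known, and with an offset of 50 only Cd14 and P2rx4 of the 9 stayed past 1.5-fold.

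Genes through which lipopolysaccharide and interferon induce caspase-11 held 4 of the 9. In that list 9 genes passed the filter, with a median log2 ratio of 0.48. Of them 4 were at least 1.5-fold higher and 0 lower, against 5.32% and 5.99% of all kept genes. Ratios were above 0 for 8 genes, as for 42.0% of all kept genes, and below it for 1, Ifnar2, named after its values were seen. This interferon receptor gene was at −0.41 (local SD 0.18), with −0.20 and −0.14 in its further probesets. Cd14, the lipopolysaccharide co-receptor, read 4145 on the miR-155 array and 1728 on the empty-vector array (log2 ratio 1.26, local SD 0.13). Irf9, the DNA-binding subunit of the interferon-activated complex ISGF3, read 257 on the miR-155 array and 155 on the empty-vector array (0.73, local SD 0.26). Its partner Stat2 read 54.1 on the miR-155 array and 20.9 on the empty-vector array, the last under the floor. Ticam1, which encodes the adaptor TRIF, read 57.9 on the miR-155 array and 36.1 on the empty-vector array (0.68, local SD 0.53). Cd14 stood far outside its local spread, whereas Ticam1 was dim and close to its own. With an offset of 50 only Cd14 of these 4 was still past 1.5-fold. Stat2 had passed the filter through its miR-155 reading, so its ratio had to be above 0. It is counted in the 8 above 0 and in these 4, and its place there supports nothing.

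Among other inflammasome sensors, 5 passed the filter, with a median of 0.32. At least 1.5-fold higher were 2 of them, against 5.32% of all kept genes, and 3 were within 1.5-fold. All 5 ratios were above 0, as were those of 42.0% of all kept genes, and with an offset of 50 added to each signal 0 of the 5 were past 1.5-fold. Nlrp10, of the NOD-like receptor family, read 66.2 on the miR-155 array and 31.3 on the empty-vector array (log2 ratio 1.08, local SD 0.53). Naip5, the receptor of bacterial flagellin, read 68.9 on the miR-155 array and 39.9 on the empty-vector array (0.79, local SD 0.46). Naip genes are close copies of each other, so a probeset of one may also bind transcripts of another.

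Regulators of Nlrp3 activation had 2 of 8 genes at least 1.5-fold higher and 0 lower, against 5.32% and 5.99% of all kept genes. Their median was 0.07. With an offset of 50 added to each signal, 1 was higher and 0 lower. Averaged probesets gave 1 higher and 1 lower, with a median of −0.04. P2rx4, an ATP-gated channel, read 74.9 on the miR-155 array and 27.7 on the empty-vector array (log2 ratio 1.44, local SD 0.53). Its further kept probeset disagreed, with 38.7 on the miR-155 array and 42.1 on the empty-vector array. Tnfaip3, which encodes the ubiquitin-editing enzyme A20, read 80.1 on the miR-155 array and 52.4 on the empty-vector array (0.61, local SD 0.41), and its further probeset gave 0.15. Both genes thus depended on which probeset was read.

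Gasdermin and IL-1 family genes include substrates of the inflammatory caspases. Of 9 listed, 5 passed the filter, and by their brightest probeset all 5 were within 1.5-fold, as were 8068 of all 9097 kept genes. The median log2 ratio of the 5 was −0.06 and turned to 0.20 with averaged probesets. Gsdmd, the pore-forming substrate of caspase-1 and caspase-11, had the largest ratio, at 337 on the miR-155 array and 246 on the empty-vector array (0.45, local SD 0.22). Il1rn, the antagonist of the IL-1 receptor, came next at 0.18, but a further probeset past the filter was higher, with 52.2 on the miR-155 array and 33.1 on the empty-vector array (0.66). Gsdme, named after its values were seen, was at −0.12 by its brightest probeset. Its further probeset past the filter read 41.8 on the miR-155 array and 21.3 on the empty-vector array (0.97), the last under the floor. Il1b, named after its values were seen, read 22.9 on the miR-155 array and 17.0 on the empty-vector array, under the floor on both, so the cytokine that caspase-1 matures has no ratio here.

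On the apoptotic side, the 9 apoptosome and IAP genes and both PIDDosome genes were within 1.5-fold by their brightest probeset. So were 8068 of all 9097 kept genes. With averaged probesets, which bring in probesets under the floor, 1 of the 9 was at least 1.5-fold higher and 0 lower. The median of the 9 was −0.08, and 0.06 with averaged probesets. Diablo, which encodes the IAP antagonist Smac, was at −0.30 (0.29 with averaged probesets, which brings in a probeset under the floor) and Apaf1, the scaffold of the apoptosome, at −0.15. The PIDDosome genes were at −0.30 for Pidd1 and −0.19 for Cradd, and 58.0% of all kept genes also had a ratio below 0. These values are log2 ratios of miR-155 over empty vector.

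Mlkl, the membrane-disrupting effector of necroptosis, was the 1 gene at least 1.5-fold higher among the 8 past the filter in the death receptor and necroptosis list. It read 111 on the miR-155 array and 71.3 on the empty-vector array (log2 ratio 0.64, local SD 0.36). With an offset of 50 its ratio was 0.41 and 0 genes of the list were past 1.5-fold. The list median was 0.28, and −0.09 with averaged probesets. Over all kept genes 5.32% were at least 1.5-fold higher, so 1 gene of 8 marks nothing particular to this list.

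Among 9 executioner substrates, 1 was at least 1.5-fold lower and 0 higher by their brightest probeset, against 5.99% and 5.32% of all kept genes. Averaged probesets gave 0 lower and 2 higher (Rock1 at 0.84 and Xkr8 at 1.06, each with a probeset under the floor on both arrays). The gene lower by its brightest probeset was Lmna, the lamin A gene whose product caspase-6 cleaves. It read 1809 on the miR-155 array and 2913 on the empty-vector array (log2 ratio −0.69, local SD 0.14). Its 3 further probesets past the filter gave −0.35, −0.57 and −0.93. Lmna was thus lower in every probeset past the filter, and its dimmest one, under the floor on both arrays, had 3.78 on the miR-155 array and 1.68 on the empty-vector array. With that one averaged in, the ratio of Lmna was −0.27. The other gene at least 1.5-fold lower was Casp14, a caspase of skin cornification, at 26.8 on the miR-155 array and 40.5 on the empty-vector array. The local SD there was 0.59, the probeset carries the suffix that marks possible cross-hybridisation, and with the ratios centred on the median of all probesets Casp14 was within 1.5-fold.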

How the data were processed

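RNA from 1 pool of RAW264.7 clones carrying miR-155 and 1 pool carrying the empty vector was measured on 1 array each, per the labels. The authors deposited 1 intensity per probeset on a linear scale; the sources used here do not give the summarisation, background correction or scaling, and no detection calls were used. Gene names came from the platform's annotation, and symbols were checked by Entrez identifier against the RefSeq table of GRCm38.p6 (0 changed); 932 probesets with several symbols, 9160 unnamed ones and 64 controls were left out. Ratios were taken as log2(miR-155 intensity / empty-vector intensity) on the deposited values without an offset. With 1 array per group no p-value was computed, and genes were counted at 1.5-fold, with 2-fold beside it. Counting steps were tested on simulated ratios. The genes and lists were chosen with earlier results of these data known. Named were all 8 genes with every probeset and, from each pathway list, the genes past 1.5-fold or otherwise the 2 largest ratios. No gene was named for likeness of pattern, since 2 arrays give 1 ratio. Alternatives were another filter on dim genes, an offset, a floor, averaged probesets, median centring and quantile normalisation, in Python 3.11.15 with numpy 2.4.6, pandas 2.3.3 and matplotlib 3.10.9.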

Additional observations from a re-analysis of the deposited data

How the results depend on the processing

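No paired analysis was possible because each group holds 1 array, and for the same reason no array could be left out in turn. Of 45 log2 ratios of the 7 genes past the filter under the alternatives, 24 differed at all from the value reported, since filters, the floor and averaging leave most of these ratios as they are. Of the 24, 23 moved by less than the local SD, and 1, Casp4 with an offset of 50, moved to 0.60, still past 1.5-fold. Part of this count was fixed in advance. Centring on the median of all probesets (−0.08) moves every ratio equally, by less than the smallest local SD of the 7 genes (0.19, Casp8). An offset only shrinks a ratio. The ratios of Casp6, Casp8, Casp9 and Nlrp3 were smaller than their local SDs, so the offset could not move them by as much. The difference of inflammatory and apoptotic medians was 0.66 in the upper 25% of signal, where it compares Casp1 with Casp2 and Casp8 only, and 0.59 with an offset of 50. The count of the 8 genes at least 1.5-fold higher was 0 in the upper 25% of signal, which drops Casp4, and 2 with no filter, which adds Pycard. Over all kept genes, those past 1.5-fold upwards and downwards numbered 110 and 95 within the brightest 25%, 3111 and 3848 without a filter, and 196 and 188 after adding 50; averaging probesets gave 978 downwards. Signal over background limits Casp4 and Pycard most.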

Other observations

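Of the 68 pathway genes with a probeset, 12 did not pass the signal filter. By their brightest probeset 2 of these reached the floor of 25.8 on the miR-155 array and 0 on the empty-vector array; both are named after their values were seen. Fas, the death receptor that recruits caspase-8, read 39.0 on the miR-155 array and 8.61 on the empty-vector array. Zbp1, an interferon-inducible nucleic acid sensor that engages Ripk3, read 46.4 on the miR-155 array and 7.98 on the empty-vector array in its brightest probeset, and 4.50 on the miR-155 array and 3.08 on the empty-vector array in its other one. Each gene thus had a single probeset above the floor, on 1 array. How many of all 9096 genes that failed the filter did the same was not counted, so nothing particular to these 2 follows.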
